A study of Mus musculus with 11 samples.

Results

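The coiled-coil domain containing (Ccdc) genes are a set held together by a name rather than by descent. The 130 genes described here are all those in the RNA-Seq count table whose GENCODE M21 symbol is Ccdc followed by a digit, other than Ccdc39, Ccdc40, Ccdc63, Ccdc65, Ccdc114 and Ccdc151, out of 23074 genes in all. Whole decapsulated testes were taken at postnatal day 21 (P21) from 5 wild type mice (WT, numbered 1 to 5) and 6 Rfx2-/- mice (numbered 6 to 11), all on a mixed C57BL/6, 129/Sv and FVB/N background. The Rfx2-/- mice lacked exon 7 of Rfx2, which codes for much of the DNA binding domain, in all cells, after recombination by a universally expressed Cre. Each library held RNA from germ cells and somatic cells together, so fewer cells of a type and less RNA per cell cannot be told apart in any value below.

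A coiled coil is formed when alpha helices wind around each other, and proteins built from long coiled coils serve as rods, rulers and tethers. In cilia and in the sperm flagellum they tie dynein arms and other parts to the axonemal microtubules, hold centrioles and basal bodies together, and link the flagellum to the sperm head. RFX2 is a transcription factor of the RFX family, whose members bind the X-box, an inverted repeat found at the promoters of many ciliary genes. P21 falls within the first wave of mouse spermatogenesis, when pachytene spermatocytes are abundant and round spermatids are accumulating.

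The Rfx2 gene itself had 191 to 472 CPM (counts scaled to library size, with TMM) in WT and 282 to 324 CPM in Rfx2-/- testes, but a count over all its exons cannot show the loss of exon 7. Libraries held between 22232097 and 29769483 counted reads, so that 3 counts correspond to 0.0852 to 0.139 CPM. Markers of all 9 cell types examined were detected, and none of these genes was at 0 in every mouse. WT mice 3 and 5 stood apart: their summed spermatocyte markers were 2634 and 2553 CPM, against 4824 to 5374 CPM in the other WT mice and 4900 to 6197 CPM in Rfx2-/- mice. Summed round spermatid markers were 428 and 351 CPM in these 2 mice, 984 to 1595 CPM in the other WT mice and 1134 to 2231 CPM in Rfx2-/- mice. Sertoli cell markers summed to 2922 to 4384 CPM in WT and 2852 to 3310 CPM in Rfx2-/- testes. The 6 late spermatid markers (Prm1, Prm2, Tnp1, Tnp2, Odf1 and Smcp) summed highest in WT mouse 1 (348 CPM) and Rfx2-/- mouse 7 (411 CPM). Their sum was as low as 1.32 CPM elsewhere. Which cells these sums came from was not tested. For P21 the paper describes only very early round spermatids in the most advanced tubules. It lists Tnp1 and Tnp2 among mRNAs already present when the round stage ends. Leaving out WT mice 3 and 5 together is therefore given beside the counts of genes.

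The promoters of 105 of the 130 genes were found in RefSeq, as 132 windows of 300 bases around annotated start sites. The windows of 4 genes that were called at an adjusted p of at most 0.01 (edgeR) with a change of more than 2-fold between genotypes held a match to the X-box pattern, taken as GT and CC with any 2 bases between them, any 2 bases, and GG and AC with any 2 bases between them, which reads the same on both strands. Stretches of 30 bases are printed 5′ to 3′ on the strand of the gene (GRCm38.p6), with the match in capitals, because the matches lie close to the start of transcription.
Ccdc175 (chr12:72185022-72185051, minus strand): gcgtcgtcGTTGCCCTGGCAACagtgttcc
Ccdc180 (chr4:45890295-45890324, plus strand): tccctcgcGTTGCCTAGGAAACcacagcgt
Ccdc74a (chr16:17646456-17646485, plus strand): gcgcgccgGTTCCCAAGGCGACcgagtgcc
Ccdc189 (chr7:127588238-127588267, minus strand): taacaacgGTCACCGGGGAGACaagttggg
The match began 14 bases before the start site in Ccdc175, 6 bases before it in Ccdc74a and 101 bases before it in Ccdc189, and it began at the start site itself in Ccdc180. The Ccdc189 match lies inside the gene as GENCODE draws it, since that annotation also has transcripts that begin further upstream. The pattern was found in 8 of the 132 Ccdc windows (6.06%) and in 618 of all 32851 RefSeq windows (1.88%).

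Of the 130 Ccdc genes, 126 had enough counts to be tested. Between genotypes, 8 were lower and 2 higher in Rfx2-/- testes at an adjusted p of at most 0.01 (edgeR's quasi-likelihood test, Benjamini-Hochberg over 15745 genes). This was 6.35% and 1.59% of the tested Ccdc genes, beside a background of 1.94% lower and 0.73% higher among all tested genes. With a change of more than 2-fold the counts were 7 lower (5.56%, background 1.04%) and 1 higher (0.794%, background 0.216%). At an adjusted p of at most 0.05, edgeR called 14 lower and 10 higher (background 8.78% and 6.15%), with 7 and 4 past 2-fold (background 1.68% and 0.572%). DESeq2's Wald test, at 0.01, called 12 lower and 14 higher (background 4.51% and 6.03%), with 7 and 4 past 2-fold (background 1.22% and 0.599%), and its 26 genes held all 10 of those called by edgeR. Without WT mice 3 and 5, 8 were lower and 3 higher (background 2.72% and 1.06%), and 9 of the 10 genes were shared. The median log2 fold change was 0.07 over the tested Ccdc genes and -0.05 over all tested genes. In 12 tested Ccdc genes every Rfx2-/- mouse was below every WT mouse and in 12 every Rfx2-/- mouse was above, beside 5.2% and 6.5% of all tested genes. Changes of at most 2-fold were fitted for 112 of the 126 genes.

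**Figure D1:**
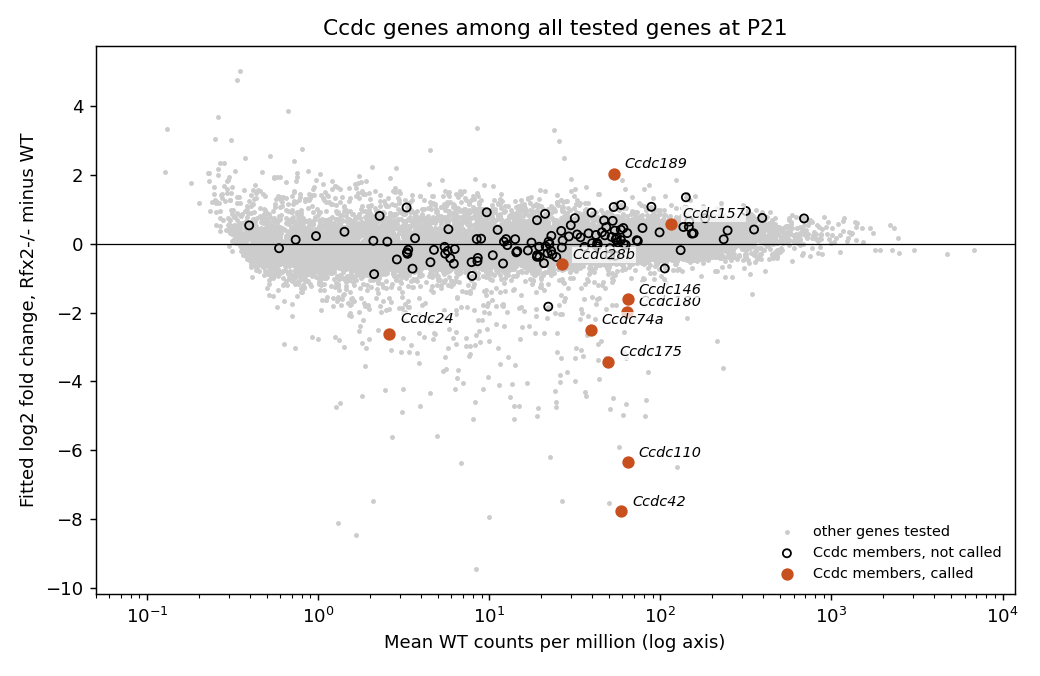
Fitted log2 fold change (Rfx2-/- minus WT) against the mean WT level in CPM on a log axis, for all 15745 tested genes (grey), Ccdc genes that were not called (open circles) and the 10 that were called (filled). Most Ccdc genes lie around 0, and the called ones with the largest falls, Ccdc42 and Ccdc110, sit at about 60 CPM in WT.

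Ccdc42, needed in mice for the coupling of the sperm tail to the head, was nearly absent from Rfx2-/- testes. WT mice 1 to 5 had 98.3, 75.4, 27.2, 70.4 and 24.4 CPM, and Rfx2-/- mice 6 to 11 had 0.279, 0.330, 0.185, 0.400, 0.261 and 0.131 CPM. The lowest WT value thus lay far above the highest Rfx2-/- value, which rested on 9 reads. The mutant libraries held between 3 and 9 reads of the gene, the lowest being at the floor of 3 counts. The log2 fold change was -7.78 (SE 0.48, adjusted p = 1.09e-05, edgeR).

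Ccdc110, known in humans as a cancer/testis antigen, fell in the same manner. The values were 115.5, 73.3, 26.7, 85.8 and 20.4 CPM in WT mice 1 to 5 and 0.599, 0.619, 0.647, 0.845, 1.26 and 0.740 CPM in Rfx2-/- mice 6 to 11, where 14 to 29 reads were counted per library. The genotypes did not overlap, and the log2 fold change was -6.35 (SE 0.51, adjusted p = 4.61e-05, edgeR). Ccdc110 lies on chromosome 8, from 45934619 to 45944145 of GRCm38, on the plus strand.

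Ccdc175 was more than 10 times lower in mutants. WT mice 1 to 5 had 90.3, 63.7, 22.7, 54.4 and 16.3 CPM, and Rfx2-/- mice 6 to 11 had 5.55, 9.45, 3.01, 2.62, 4.13 and 2.79 CPM. Its residual expression was highest in mutant mice 7 and 6, which also had the highest late spermatid markers among mutants. The log2 fold change was -3.43 (SE 0.50, adjusted p = 0.00213, edgeR).

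Ccdc74a, whose human counterpart binds microtubules of the mitotic spindle, kept a nearly even level in all mutants. It had 61.2, 48.0, 21.1, 45.03 and 19.8 CPM in WT mice 1 to 5 and 6.74, 7.89, 6.01, 6.05, 7.22 and 7.58 CPM in Rfx2-/- mice 6 to 11. The log2 fold change was -2.50 (SE 0.28, adjusted p = 0.000405, edgeR).

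Ccdc180 also stood at one level in the mutants, with 17.1, 17.5, 16.6, 13.2, 17.0 and 16.6 CPM in mice 6 to 11, while WT mice 1 to 5 had 106.6, 69.8, 40.0, 70.4 and 33.1 CPM. No Rfx2-/- value reached the WT range. The log2 fold change was -1.97 (SE 0.26, adjusted p = 0.00117, edgeR).

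Ccdc146, a centriole and microtubule-associated protein required for the sperm flagellum, was lower in mutants by a narrow margin between the groups. Its levels were 95.4, 78.2, 38.8, 78.2 and 32.5 CPM in WT mice 1 to 5 and 26.3, 30.2, 15.5, 14.5, 21.0 and 19.0 CPM in Rfx2-/- mice 6 to 11. The highest mutant value, in mouse 7, was just below the value of WT mouse 5. The log2 fold change was -1.61 (SE 0.30, adjusted p = 0.0089, edgeR). The adjusted p ranged from 0.00395 to 0.0268 when each mouse was left out in turn, and stayed at or below 0.01 only without WT mouse 3 or WT mouse 5.

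Ccdc24 was a gene of low expression, with 1.67 to 4.16 CPM in WT and 0.174 to 0.784 CPM in Rfx2-/- testes, and it was 6.19-fold lower in mutants (adjusted p = 0.00116, edgeR). These values rest on 53 to 118 reads per library in WT and 4 to 19 in mutants. Of the exon length of Ccdc24, 33.4% is shared with B4galt2 on the same strand and 33.8% with Slc6a9 on the opposite strand, and reads overlapping exons of different genes were left out of the count. Whether this held for opposite strands depends on stranded counting, which is not stated. B4galt2 (log2 fold change -0.02, adjusted p = 0.848) and Slc6a9 (-0.44, adjusted p = 0.0577) were not called by the same test.

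**Figure D2:**
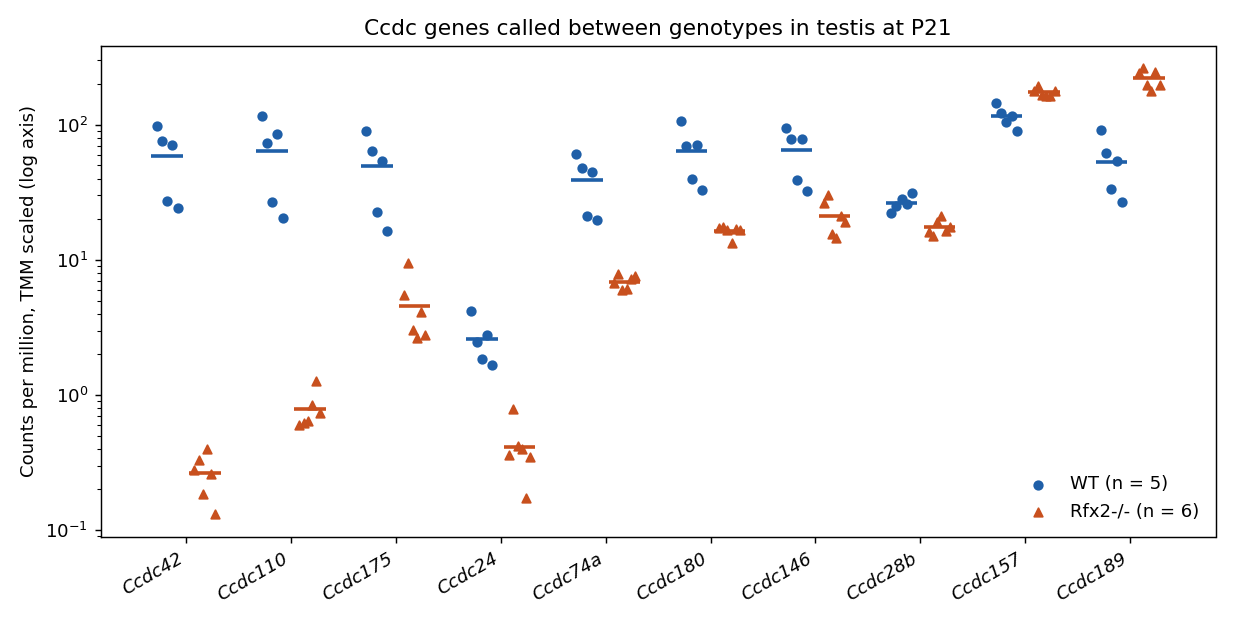
Level of the 10 called Ccdc genes in every mouse, in TMM scaled CPM on a log axis, ordered by fitted fold change. Circles are the 5 WT and triangles the 6 Rfx2-/- mice, and bars are the means; the genotypes do not overlap for any of the 10 genes, and WT mice 3 and 5 are the lowest WT circles in 7 of the 8 genes that fell and in both that rose.

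The smallest fall among the called genes was that of Ccdc28b. This gene, a modifier of Bardet-Biedl syndrome that acts on cilium length, had 26.5 ± 3.42 CPM (SD, n = 5) in WT and 17.6 ± 2.22 CPM (SD, n = 6) in mutants, a log2 fold change of -0.59 (adjusted p = 0.00918, edgeR). In contrast to the genes above, its WT values were highest in mice 5 and 3 (31.3 and 28.0 CPM). Its adjusted p exceeded 0.01 when any mouse other than WT mouse 1 or Rfx2-/- mouse 9 was left out, reaching 0.0283 at most, and 24.7% of its exon length overlaps Tmem234 on the opposite strand, a gene with log2 fold change 0.03 (adjusted p = 0.728, edgeR).

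Ccdc189, a protein associated with the radial spokes of the sperm axoneme, showed the opposite behaviour to the genes that fell. WT mice 1 to 5 had 91.4, 62.1, 33.6, 53.7 and 26.6 CPM, and Rfx2-/- mice 6 to 11 had 242.0, 262.3, 196.8, 178.5, 246.3 and 197.7 CPM. Every mutant value lay above every WT value, and the log2 fold change was 2.04 (SE 0.29, adjusted p = 0.00166, edgeR). Phkg2, a phosphorylase kinase subunit of testis and liver, overlaps 34.5% of the exon length of Ccdc189 on the opposite strand. Phkg2 had 125.5 to 404.4 CPM in WT and 336.7 to 501.3 CPM in Rfx2-/- testes (log2 fold change 0.64, adjusted p = 0.11). Whether reads on the shared exons were counted is not known, and the part of Phkg2 in the Ccdc189 reads was not tested.

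Ccdc157 was the other gene that was higher in mutants. It had 89.6 to 144.1 CPM in WT and 164.2 to 193.2 CPM in Rfx2-/- mice, a log2 fold change of 0.59 (SE 0.11, adjusted p = 0.0078, edgeR), and its adjusted p reached 0.0217 at most with 1 mouse left out, staying at or below 0.01 only without WT mouse 1 or WT mouse 5. Ccdc13, a centriolar satellite protein that takes part in ciliogenesis, lay just outside the threshold although its genotypes were apart. WT mice 1 to 5 had 217.7, 167.6, 81.5, 165.8 and 71.8 CPM and Rfx2-/- mice 6 to 11 had 410.9, 413.6, 330.9, 310.2, 363.3 and 331.0 CPM (log2 fold change 1.35, adjusted p = 0.0129, edgeR). It was called without WT mouse 1 (adjusted p = 0.00532, edgeR), without WT mice 3 and 5 together (log2 fold change 0.98) and by DESeq2, while with any other single mouse left out its adjusted p lay between 0.0138 and 0.0332.

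The genes were also grouped by the role their products are known for. The axoneme and flagellum list held 14 genes, all tested, of which Ccdc42 and Ccdc146 fell, Ccdc189 rose and 11 were not called. This was 14.3% lower and 7.14% higher, beside 1.94% and 0.73% of all tested genes. The median log2 fold change of the list was 0.05. The 4 uncalled genes with the most reads in WT went in different directions. Ccdc38, a partner of Ccdc42 at the sperm tail, had 316.0 ± 157.8 CPM (SD, n = 5) in WT and 612.7 ± 78.3 CPM (SD, n = 6) in mutants (adjusted p = 0.0605, edgeR). DESeq2 called Ccdc38 (log2 fold change 0.99, adjusted p = 0.00981) and further genes of the list that edgeR had not called, all higher in mutants. Its background was 6.03% higher. Ccdc181, a microtubule-binding flagellar protein, had log2 fold change 0.13, and Ccdc96 and Ccdc113, which form a complex along the axoneme, had -0.18 and -0.72, with adjusted p-values between 0.0915 and 0.656 (edgeR) for the 3 genes. Without WT mice 3 and 5, Ccdc113 passed the threshold at a log2 fold change of -1.12.

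None of the 15 centriole and centrosome genes was called by edgeR at 0.01, while 8 had an unadjusted p under 0.05, as did 41.8% of all tested genes, and their median log2 fold change was 0.06. Besides Ccdc13, the highest in WT were Ccdc92, a centriolar protein, at 393.7 ± 151.2 CPM (SD, n = 5) in WT and 663.8 ± 66.3 CPM (SD, n = 6) in mutants (adjusted p = 0.0511), Ccdc18 of the centriolar satellites (log2 fold change 0.11) and Ccdc61 of the basal body (0.04). DESeq2 at 0.01 called Ccdc92 and Ccdc13, both higher in mutants, and also other genes of this list, in both directions. Its background was 4.51% lower and 6.03% higher. Of the meiotic genes, Ccdc155 (KASH5), which joins telomeres to dynein at the nuclear envelope, had log2 fold change 0.30 (SE 0.13) and Ccdc36 (IHO1), which promotes meiotic double-strand breaks, had 0.02 (SE 0.08), and neither was called.

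The sperm head list had 4 genes, of which 3 were tested and not called. Ccdc136, which is needed for acrosome formation, had the highest level of any Ccdc gene per length, 162.4 CPM per kb of exon in WT, and its count was 691.0 ± 302.1 CPM (SD, n = 5) in WT against 1153 ± 186.7 CPM (SD, n = 6) in mutants (adjusted p = 0.0764, edgeR). Ccdc62 had log2 fold change 0.65 (adjusted p = 0.0838, edgeR). Both were lowest in WT mice 3 and 5.

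Among genes with roles outside centrioles, flagella and meiosis, none of 6 trafficking, 9 nuclear and RNA, 9 signalling or secreted, and 4 mitochondrial genes was called by edgeR at 0.01, and 1, 6, 5 and 0 of them had an unadjusted p under 0.05, again beside 41.8% of all tested genes. Their median log2 fold changes were 0.04, 0.23, 0.13 and 0.01. The most expressed were Ccdc47 of the endoplasmic reticulum (log2 fold change 0.11, SE 0.06) and Ccdc186 of dense core vesicle sorting (-0.01, SE 0.12), Ccdc97 (0.33, SE 0.11) and Ccdc130 (0.49, SE 0.20), both linked to the spliceosome, and the actin and Wnt regulators Ccdc88c (Daple; 0.31, SE 0.15) and Ccdc88a (girdin; 0.49, SE 0.16). The mitochondrial genes ranged only from -0.09 to 0.07. In the 64 tested genes on no list, 6 fell (9.38%) and 1 rose (1.56%), with a median of 0.07. The background was 1.94% lower and 0.73% higher among all tested genes.

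**Figure D3:**
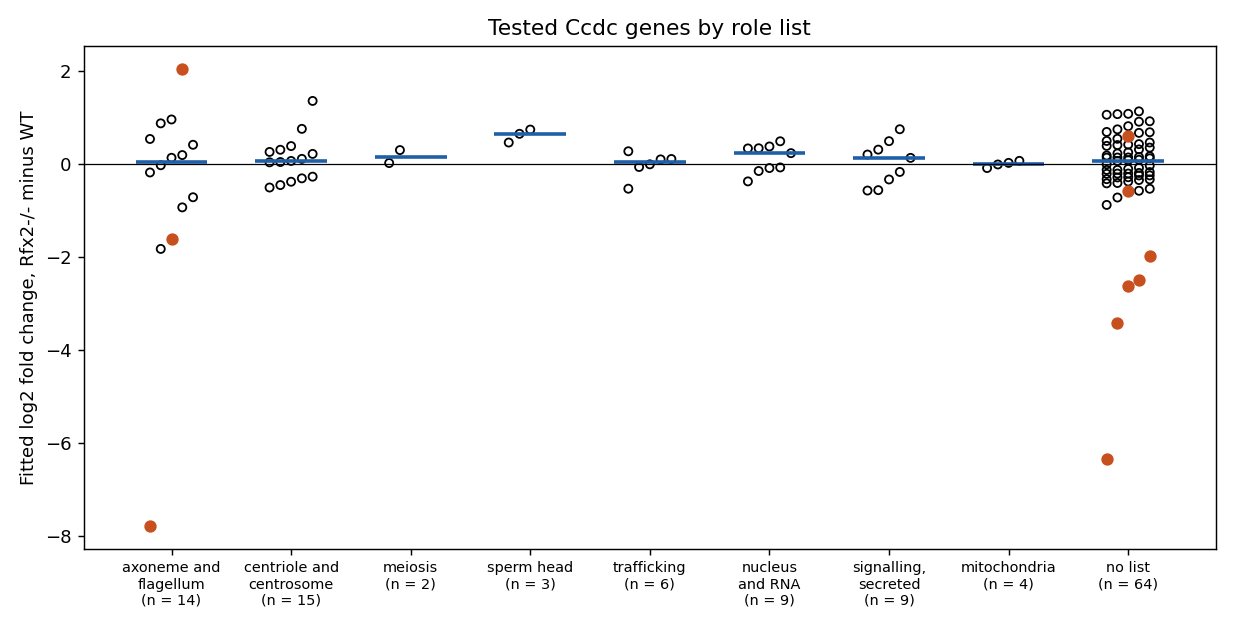
Fitted log2 fold change (Rfx2-/- minus WT) of each of the 126 tested Ccdc genes by role list, with called genes filled and the list median as a bar. The list medians lie between 0.01 and 0.65, and 7 of the 10 called genes are on no list, as are 64 of the 126 tested genes.

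Many Ccdc genes also varied widely between mice of one genotype. Of the 126 tested genes, 75 were highest in WT mouse 1 among WT mice and 66 were lowest in WT mouse 5, while 66 were highest in Rfx2-/- mouse 7 among mutants. In 12 genes the WT values spanned more than 10-fold. All 12 were highest in WT mouse 1 and in Rfx2-/- mouse 7, the 2 mice with the highest late spermatid markers of their genotypes, and none was called. The part of cell composition in these values was not tested.

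Ccdc54 was the widest of the named ones, with 35.1, 8.68, 0.426, 0.596 and 0 CPM in WT mice 1 to 5 and 16.8, 29.6, 0.277, 0.889, 8.30 and 3.48 CPM in Rfx2-/- mice 6 to 11. Ccdc70 followed the same order of high and low mice, as did Ccdc183 apart from WT mice 3 and 4, ranging from 0.0943 to 22.5 and from 1.10 to 36.7 CPM in WT and from 0.601 to 21.2 and from 2.45 to 55.5 CPM in mutants. The genotypes of all 3 genes overlapped, and their adjusted p-values lay between 0.508 and 0.942 (edgeR).

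Ccdc81, Ccdc33 and Ccdc105 were other genes with such a spread. Ccdc105, a tektin-like protein of the axonemal microtubule lumen, had 59.7, 28.1, 5.31, 12.7 and 4.68 CPM in WT mice 1 to 5 and 8.70, 13.9, 2.68, 2.67, 5.56 and 3.79 CPM in Rfx2-/- mice 6 to 11. Although the ranges overlapped, none of the mutants reached the 28.1 CPM of WT mouse 2. The log2 fold change was -1.83 (SE 0.70, adjusted p = 0.0816, edgeR), and -1.03 without WT mouse 1 (adjusted p = 0.182), with adjusted p-values from 0.0776 to 0.182 over the fits with 1 mouse left out. With the mean log2 CPM of the round spermatid markers as a covariate, the log2 fold changes of Ccdc105, Ccdc81 and Ccdc33 became -2.54, -1.87 and -2.70, and all 3 were called. The summed markers ranged from 351 to 1595 CPM in WT and from 1134 to 2231 CPM in mutants. A fit with this covariate therefore does not fully separate genotype from marker level.

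The same covariate gave 15 Ccdc genes lower and 5 higher (background 4.32% and 1.59%), with 11 and 2 past 2-fold (background 2.44% and 0.311%), and all 10 genes of the fit without it were among the 20. Ccdc42, Ccdc110 and Ccdc189 changed by -8.24, -6.77 and 1.78 in that fit. Ccdc89 and Ccdc192, with log2 fold changes of 1.08 and 1.13 (adjusted p = 0.0353 and 0.0311, edgeR), passed the threshold with the covariate and with DESeq2, but were not called without WT mice 3 and 5, where their log2 fold changes were 0.68 and 0.74. Ccdc160, on the X chromosome, had a log2 fold change of -0.38 (adjusted p = 0.0164, edgeR). It was called with the covariate (-0.30) and with DESeq2 (-0.35), but not without WT mice 3 and 5 (-0.28, adjusted p = 0.0551, edgeR).

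**Figure D4:**
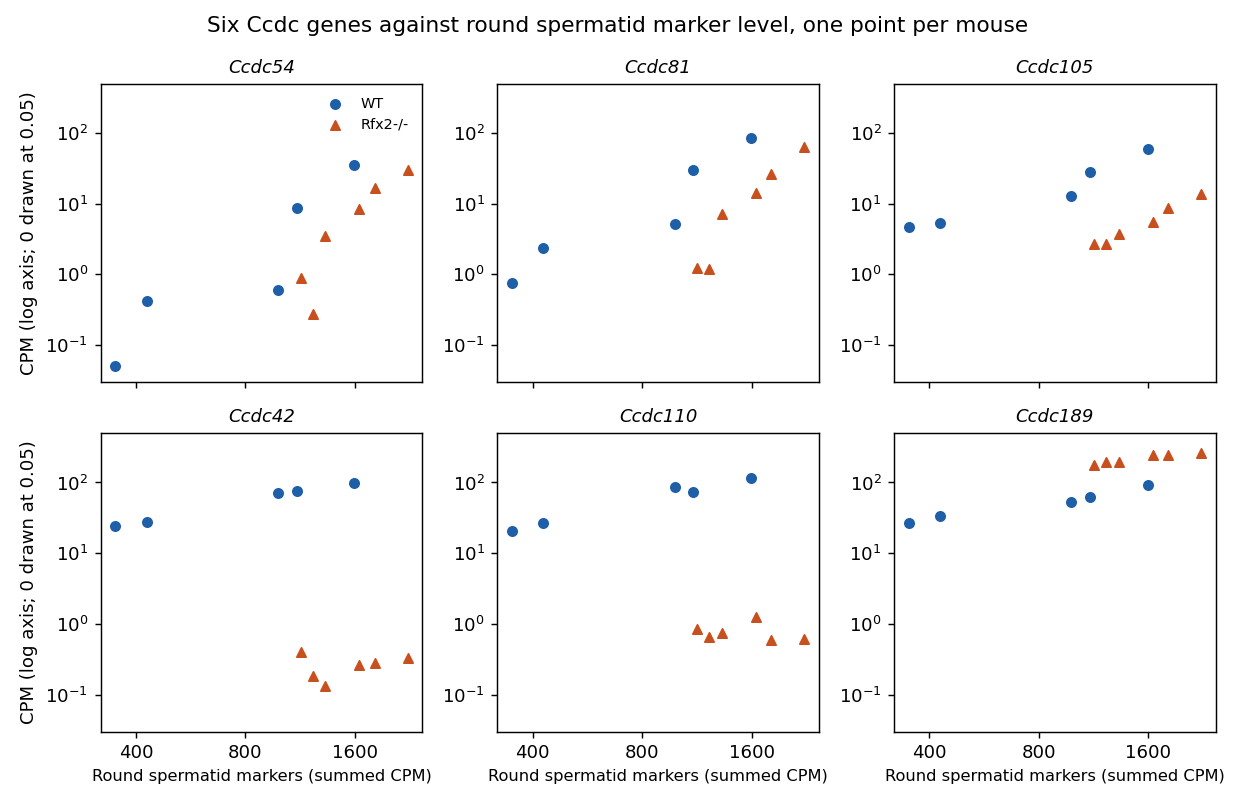
CPM of 6 Ccdc genes (log axis) against the summed CPM of 11 round spermatid markers (log axis), with 1 point per mouse; circles are WT and triangles Rfx2-/-, and a value of 0 is drawn at 0.05. Ccdc54, Ccdc81 and Ccdc105 have their highest values in the mice with the most marker RNA in both genotypes, whereas Ccdc42 and Ccdc110 stay near or below 1 CPM in every mutant and Ccdc189 is above WT in every mutant.

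A mark of RFX2 binding at the promoter by ChIP-Seq was carried by 23 of the Ccdc genes, all of which were tested. The paper also reports peaks in introns, exons and intergenic regions, which the mark leaves out, so a gene without it is not shown to be unbound. Of the 23 marked genes, 3 fell (Ccdc175, Ccdc180 and Ccdc146), 2 rose (Ccdc189 and Ccdc157) and 18 were not called. Their median log2 fold change was -0.17. In percent, 13.04 were lower and 8.70 higher, beside 7.07 and 3.06 of the 948 tested genes that carry the mark in the whole table. Of the 103 tested Ccdc genes without the mark, 5 fell (4.85%), among them Ccdc42 and Ccdc110, and none rose, beside 1.61% lower and 0.581% higher among the 14797 tested genes without it.

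Promoter sequence was compared with the marks in the same way. The X-box pattern was found in 6 of 23 windows of marked Ccdc genes (26.1%) and in 2 of 109 windows of the others (1.83%), while 18.5% of the windows of all marked genes held it. The 2 genes without the mark were Ccdc74a and Ccdc47. The same pattern with a spacer of 1 base between CC and GG was found in 2 Ccdc windows (1.52%) and in 1.01% of all windows. A single repeat, GTTGCC on either strand, which can lie within a full match, was found in 29 Ccdc windows (21.97%) and in 12.5% of all windows, Ccdc110, Ccdc157 and Ccdc105 included. The windows of Ccdc42 and Ccdc24 held none of these patterns. Ccdc146 and Ccdc28b had no matched window, so their promoters were not searched.

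Matches were also found in genes that were not called, of which 3 marked ones are shown for comparison with those above, again 5′ to 3′ on the strand of the gene with the match in capitals.
Ccdc13 (chr9:121839488-121839517, minus strand): ccgtgctgGTTTCCCTGGTGACggttgcca
Ccdc148 (chr2:59160660-59160689, minus strand): ggtttcagGTCGCCATGGAGACcgatgctg
Ccdc184 (chr15:98167756-98167785, plus strand): acttcctcGTTGCCATGGAGACacacgtca
Ccdc13 lay just outside the threshold, with every mutant above every WT mouse (log2 fold change 1.35, adjusted p = 0.0129, edgeR), and DESeq2 called it. Ccdc184 had 2 matches, beginning 42 and 6 bases before its start site, of which the first is shown. Its level was 12.2 ± 8.08 CPM (SD, n = 5) in WT and its log2 fold change was 0.06 (SE 0.44), and Ccdc148, at 14.4 ± 6.86 CPM (SD, n = 5) in WT, had -0.25 (SE 0.31). A match to the X-box pattern was thus present in genes that fell, in a gene that rose and in Ccdc13, just outside the threshold. It was also present in genes with no detectable difference at this depth and spread.

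Genes that the symbol rule leaves aside were measured in the same fit. Of the 6 axonemal genes excluded by symbol, Ccdc40 fell (log2 fold change -2.16, adjusted p = 0.00092, edgeR) and 5 were not called. Closest to the threshold among the 5 were Ccdc65 (-1.75, adjusted p = 0.0125, edgeR) and Ccdc151 (1.18, adjusted p = 0.0204, edgeR). In both, the genotypes did not overlap. Of this list 16.7% were called lower and 0% higher, beside 1.94% and 0.73% of all tested genes. Among 12 axonemal and ciliary genes that once carried a Ccdc symbol, Drc1, Cfap53 and Drc7 fell, with log2 fold changes of -4.99, -4.48 and -3.32. The other 9 were not called, so that 25% were lower and 0% higher, beside the same background. The median log2 fold change of these 12 genes was 0.34. No test of a difference between these lists and the Ccdc genes was made.

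The 4 genes that were not tested for want of counts were Ccdc121, Ccdc85a, Ccdc188 and Ccdc190. Ccdc188 reached 3.70 CPM in WT mouse 1 and 1.16 CPM in Rfx2-/- mouse 7 and was at or below 0.538 CPM in the other mice. Tested Ccdc genes ranged from 0.394 to 691.0 CPM in WT with a median of 26.7 CPM, and 16 of them were at or above 100 CPM.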

How the data were processed

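The RNA-Seq libraries analysed came from P21 testes, 5 of WT and 6 of Rfx2-/- genotype. Per the labels and the study's methods, the authors made TruSeq libraries, mapped single reads to GRCm38, discarded reads mapping to more than 1 place, and counted reads on merged exons of protein coding isoforms with featureCounts 1.4.6, leaving out reads on exons of different genes. The labels name STAR 2.4 as the aligner, the methods name STAR in the paragraph on featureCounts and Bowtie in another, and stranded counting is not stated. The deposited values are raw counts, with 22232097 to 29769483 per mouse. All mice of a genotype differed by more than sampling noise (chi-square per gene of at least 3.78).

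Counts were analysed with edgeR 4.0.16 in R 4.3.3 (filterByExpr, TMM, glmQLFit and glmQLFTest without covariates), and p-values were adjusted over all 15745 tested genes by Benjamini-Hochberg, with calls at 0.01 or below. Standard errors are the log2 fold change divided by the square root of F. Floors (3 counts) cover counting error only, whereas standard errors and SDs also hold the spread between mice. The alternatives were size factors of DESeq2 in place of TMM, library sizes from total counts alone, a filter on 1 count only, a filter on a mean of 50 counts, the Wald test of DESeq2 1.42.0, a round spermatid score as covariate, an adjusted p of at most 0.05, each mouse left out, and, chosen after seeing the data, WT mice 3 and 5 left out together.

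The members and lists were chosen with earlier results of these data known. Named were all called members and, from each role list except the mitochondrial one, the uncalled members of highest WT expression, 4 for the list of axoneme genes and the list of centriole genes and 2 for the shorter lists. Ccdc54, Ccdc70, Ccdc81, Ccdc33, Ccdc105, Ccdc183, Ccdc89, Ccdc192, Ccdc160, Ccdc148, Ccdc184 and the 4 untested genes were named after their values were seen. ChIP-Seq marks came from the study's supplementary list of target genes, symbols and positions from GENCODE M21, and promoter sequences, from 250 bases before to 50 after each start site, from RefSeq (GRCm38.p6). Of the gene IDs, 781 had no GENCODE M21 symbol. Columns with the authors' own fold changes were not used. Levels per kb divide CPM by merged exon length. Figures were drawn with matplotlib 3.10.9.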

Additional observations from a re-analysis of the deposited data

Results flagged for a closer look

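Among 78 groups of mice examined, each being 1 named Ccdc gene in 1 genotype, 8 held a mouse whose value lay far from the rest by Dixon's criterion, where chance flags about 1 group in 20. That rate is no measure for these groups, since Ccdc54, Ccdc70, Ccdc33 and Ccdc183 were named for their wide spread between mice. WT mouse 1 was the high value for 4 genes of this kind: Ccdc54 at 35.1 CPM beside 0 to 8.68 CPM in the other WT mice, Ccdc70 at 22.5 CPM beside 0.0943 to 5.82 CPM, Ccdc33 at 27.5 CPM beside 0.849 to 7.47 CPM, and Ccdc183 at 36.7 CPM beside 1.10 to 6.56 CPM. Rfx2-/- mouse 7 stood out for Ccdc33, with 17.1 CPM beside 0.139 to 4.23 CPM in the other mutants, and for Ccdc186, with 84.0 CPM beside 52.8 to 64.2 CPM. These are the 2 mice with the highest late spermatid markers of their genotypes, 348 and 411 CPM, and the part of cell composition was not tested. Rfx2-/- mouse 10 was high for Ccdc110, with 1.26 CPM beside 0.599 to 0.845 CPM. Rfx2-/- mouse 9 was low for Ccdc180, with 13.2 CPM beside 16.6 to 17.5 CPM.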

How the results depend on the processing

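No paired analysis was possible because WT mice carry the numbers 1 to 5 and Rfx2-/- mice 6 to 11, so that no number is shared. With each mouse left out in turn, the number of Ccdc genes lower in Rfx2-/- ranged from 6 to 8 and the number higher from 1 to 3, with 6 to 7 and 1 to 2 of them past 2-fold, and the median log2 fold change from -0.04 (without Rfx2-/- mouse 7) to 0.18 (without WT mouse 1). Ccdc42, Ccdc110, Ccdc175, Ccdc180, Ccdc74a, Ccdc24 and Ccdc189 kept their direction and call in every one of these 11 fits and in all alternatives in which they were tested. Ccdc24 was not tested with a mean count of at least 50. Ccdc146, Ccdc157 and Ccdc28b kept their direction throughout, and each lost its call in 9 of the 11. Ccdc146 was also lost with DESeq2 size factors, and Ccdc28b with total counts, with no filter and without WT mice 3 and 5 together.

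The numbers of lower and higher genes, 8 and 2 in the report, were 15 and 5 with the round spermatid score as covariate (11 and 2 past 2-fold), 14 and 10 at an adjusted p of at most 0.05 (4 higher past 2-fold), and 12 and 14 with DESeq2 (4 higher past 2-fold). The cause was not tested. Total counts as library sizes moved the median of all tested genes by -0.17, to -0.22, and that of the Ccdc genes to -0.076. The difference of Ccdc median from overall median was 0.13 with TMM and 0.14 with total counts, which called 2 genes higher past 2-fold.

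Of the named genes, 13 that were not called changed sign in at least 1 fit. With total counts, log2 fold changes became -0.053 for Ccdc18, -0.15 for Ccdc36, -0.056 for Ccdc47, -0.12 for Ccdc61 and -0.065 for Ccdc184. Ccdc186 became 0.018 with DESeq2 size factors, 0.021 with DESeq2 and 0.041 without WT mice 3 and 5. With the covariate, Ccdc181 became -0.070, Ccdc54 -0.97, Ccdc70 -0.44, Ccdc183 -0.15 and Ccdc184 -0.49. Without WT mice 3 and 5, Ccdc181 became -0.20, Ccdc61 -0.019, Ccdc54 -0.58, Ccdc70 -0.30 and Ccdc184 -0.36. With 1 mouse left out, the ranges that crossed 0 were -0.00383 to 0.29 for Ccdc181, -0.16 to 0.49 for Ccdc184, -0.12 to 0.029 for Ccdc186, -2.36 to 0.46 for Ccdc33, -0.026 to 0.073 for Ccdc36, -0.58 to 2.03 for Ccdc54, -0.19 to 2.29 for Ccdc70, -1.28 to 0.97 for Ccdc81 and -0.35 to 0.062 for Ccdc96.

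Depth limits the mutant values of Ccdc42, which rest on 3 to 9 reads per library, and those of Ccdc24, which rest on 4 to 19. For genes such as Ccdc54, Ccdc70 and Ccdc33 the spread between mice of one genotype, with standard errors above 1 on the log2 scale, limits what the comparison can show.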
